A study of Mus musculus with 18 samples.

Results

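Among 1365 repeat subfamilies counted in mouse RNA, 51 belonged to long interspersed element (LINE) classes other than L1. They were chosen by the class written after the repeat's name, which had to begin with LINE and not be L1 itself. The 51 subfamilies fell into 8 classes, with 26 in CR1, 15 in L2, 4 in RTE-X, 2 in RTE-BovB and 1 each in Dong-R4, Jockey, L1-Tx1 and Penelope. LINEs are retrotransposons that carry their own reverse transcriptase and spread by copying their RNA back into DNA. L1 is the LINE class that is still mobile in mice, whereas L2 and CR1 spread in distant ancestors of the mammals and are no longer mobile. What remains of them are old, diverged fragments, many of which lie inside or near genes, so that their reads can come from the RNA of a host gene.

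At issue in the study was whether blocking HSP90, a chaperone needed by many signalling and regulatory proteins, affects RNA from endogenous retroviruses and other repeats. There were 18 libraries in 6 groups of 3. Embryonic stem cells (ESCs, 129S1/CASTEiJ background, kept in 2i medium) were untreated or given 100 nM of the HSP90 inhibitor NVP-AUY922. Neuronal progenitor cells (NPCs, 129S1/CASTEiJ background, kept with EGF and FGF) were untreated or given 50 nM. Macrophages, derived from bone marrow with M-CSF and of the BALBC/C57BL6 background, were untreated or given 500 nM. Treatment lasted 24 h in each cell type, so the cell types also differ in dose, and macrophages in strain. The labels name no vehicle for the untreated groups, and nothing in them says that the 3 libraries of a group were grown or taken separately, so p-values may reflect technical spread only.

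For every cell type, the authors' deposited table gives 1 comparison of the 3 treated with the 3 untreated libraries, so the values below are per comparison, and values per library were not analysed here. The base mean is the mean of normalised reads over both groups, and a subfamily sums all its genomic copies. Which group stood in the numerator of the fold change is not stated. Each subfamily is therefore called positive or negative by its sign alone, without saying whether treated cells had more or less of its RNA. The number after ± is the authors' standard error (SE) of that fold change, and 95% intervals are normal intervals computed from them. The tables hold no genes, so the labelled cell types could not be checked against marker genes. The 51 subfamilies held 0.881%, 1.76% and 1.92% of the summed base mean of all rows in ESCs, macrophages and NPCs.

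Across the 3 cell types, the CR1 subfamily X7C_LINE stood at the positive end of these LINEs in each, with differences of 2.24-fold, 2.91-fold and 2.17-fold between the groups in ESCs, macrophages and NPCs. On the negative side lay X15_LINE of the L2 class, at 2.28-fold in macrophages and 1.82-fold in NPCs, and X7A_LINE of the CR1 class, at 1.91-fold in ESCs and 1.40-fold in macrophages. Of the abundant L2 subfamilies, L2 was called in macrophages and L2d in NPCs. L2a, the row with the most reads, differed by 1.09-fold, 1.06-fold and 1.03-fold in ESCs, macrophages and NPCs and did not pass the test in any.

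A subfamily was called where the authors' adjusted p, from DESeq2's Wald test over all repeat rows of the table, was under 0.05. In ESCs 36 of the 51 were tested and 3 were called, 2 positive and 1 negative, which is 8.33% against 22.2% of all 1132 tested rows (10.2% positive and 12% negative). In macrophages 42 were tested and 10 were called, 3 positive and 7 negative, which is 23.8% against 25.8% of all 1255 tested rows (13.3% positive and 12.5% negative). In NPCs 42 were tested and 5 were called, 1 positive and 4 negative, which is 11.9% against 11.8% of all 1249 tested rows (4.96% positive and 6.81% negative). The shares in macrophages and NPCs were near those of all rows, and whether the smaller share in ESCs differs from that of all rows was not tested. At an unadjusted p under 0.05, the counts were 5 of 36, 15 of 42 and 6 of 42 in ESCs, macrophages and NPCs, against 353 of 1132, 436 of 1255 and 257 of 1249 over all tested rows.

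With sign, the values of the LINEs outside L1 had medians near 0, in which positive and negative values offset each other. Without sign, the median log2 size in ESCs, macrophages and NPCs was 0.14, 0.19 and 0.21. Over all tested rows it was 0.18, 0.22 and 0.24. The signed median log2 fold change of the tested subfamilies in ESCs, macrophages and NPCs was 0.03, -0.07 and -0.13, against 0.0019, -0.01 and 0.00089 over all tested rows. In NPCs 32 of the 42 values were negative, against 623 of 1249 over all tested rows. These subfamilies share libraries and may share reads, so the count of signs is a description only.

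Not every subfamily could be tested. In ESCs 14 had a p without an adjusted p and 1 was listed at 0, in macrophages 1 and 8, and in NPCs 7 and 2. L2-1_Crp was listed at 0 in all 3 tables. The 12 rows whose names end in Croc, Crp, AMi or Amn held few reads, with summed base means of 212, 74.4 and 105 in ESCs, macrophages and NPCs, and 0 of 5, 0 of 5 and 0 of 6 tested rows were called by DESeq2's adjusted p. At an unadjusted p under 0.05 they numbered 0, 1 and 0. Over all tested rows 22.2%, 25.8% and 11.8% were called, and 353 of 1132, 436 of 1255 and 257 of 1249 had an unadjusted p under 0.05.

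**Figure D1:**
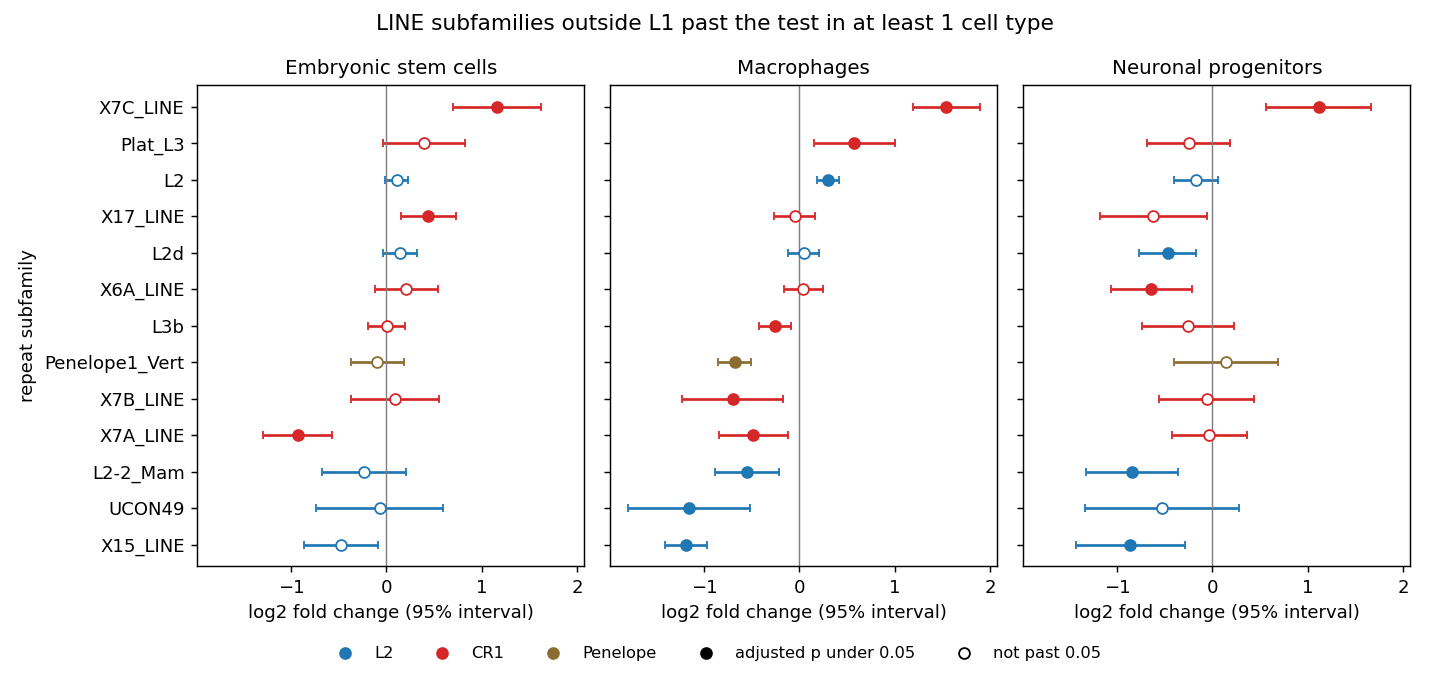
Log2 fold change of the 13 LINE subfamilies outside L1 called in at least 1 cell type, with 95% intervals, in ESCs, macrophages and NPCs. Filled points passed an adjusted p of 0.05 and open points did not. X7C_LINE lies to the right in all 3 panels at 1.16, 1.54 and 1.12, and X15_LINE lies to the left at -0.47, -1.19 and -0.86.

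Taken over all cell types, 13 of the 51 subfamilies were called at least once, and 38 were never called. Of these 38, 6 were tested in none of the 3 tables and so could not be called. All 13 were among the 35 members tested in all 3 tables, and of all repeats so tested 525 of 1121 were called at least once. The 13 gave 18 calls, of which 6 were positive and 12 negative, against 344 positive and 378 negative calls over all repeats. X7C_LINE was called in all 3 cell types, and X7A_LINE, X15_LINE and L2-2_Mam in a pair of them, each on 1 side throughout. By pair, 2 of 36 were called on the same side in ESCs and macrophages (6.41% of all rows tested in both), 1 of 35 in ESCs and NPCs (3.29% of all rows) and 3 of 39 in macrophages and NPCs (3.6% of all rows). Of the 35 members tested in all 3 tables, 1 was called on the same side in all (2.86%), against 1.96% of the 1121 such rows among all repeats. These counts, and all statements on shared sides, assume that all 3 tables put the same group in the numerator.

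CR1 elements, first described in chicken and common in birds and reptiles, gave 7 of these 13 subfamilies and the most rows. In ESCs 2 of 17 tested CR1 rows were positive and 1 negative, in macrophages 2 of 20 were positive and 3 negative, and in NPCs 1 of 20 was positive and 1 negative. The shares of all tested rows, from which no difference of the class was tested, were 10.2% positive and 12% negative in ESCs, 13.3% and 12.5% in macrophages and 4.96% and 6.81% in NPCs. The class medians were 0.13, -0.07 and -0.07 in that order. Most of the calls lay in rows of modest read number.

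X7C_LINE, a CR1 fragment family, lay at 1.16 ± 0.24 in ESCs per the authors' deposited table, with a 95% interval from 0.70 to 1.62, a base mean of 52.6 and an adjusted p of 1.06e-05. It lay at 1.54 ± 0.18 in macrophages per the authors' deposited table, with an interval from 1.19 to 1.89, a base mean of 70.2 and an adjusted p of 3.27e-16. In NPCs it lay at 1.12 ± 0.28 per the authors' deposited table, with an interval from 0.56 to 1.67, a base mean of 43.4 and an adjusted p of 0.00148. The intervals of the 3 cell types overlap, and none of the 3 differences between cell types passed the test. They were -0.38 for ESCs minus macrophages (95% interval -0.96 to 0.20), 0.05 for ESCs minus NPCs (-0.67 to 0.77) and 0.43 for macrophages minus NPCs (-0.23 to 1.08). Intervals this wide leave room for differences between cell types of up to 1.08 on the log2 scale.

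The other X7 rows did not follow X7C_LINE. X7A_LINE lay on the opposite side, at -0.93 ± 0.19 in ESCs (base mean 88.3, adjusted p 8.04e-06) and at -0.48 ± 0.19 in macrophages (base mean 71.1, adjusted p 0.0373) per the authors' deposited table. In NPCs it lay at -0.03 ± 0.20 per the authors' deposited table, with a base mean of 131, and did not pass. X7B_LINE was called in macrophages only, at -0.70 ± 0.27 with a base mean of 23.9 and an adjusted p of 0.0381 per the authors' deposited table. Its values of 0.09 ± 0.23 in ESCs and -0.06 ± 0.25 in NPCs per the authors' deposited table did not pass, and no difference of X7B_LINE between cell types passed the test. X7D_LINE held a base mean of at most 1.09 in any table and was tested in macrophages alone, where it did not pass. Thus rows that carry names of 1 family lay on both sides within ESCs and within macrophages.

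X17_LINE and X6A_LINE, also of the CR1 class, were called in 1 cell type each and on opposite sides. X17_LINE lay at 0.44 ± 0.15 in ESCs per the authors' deposited table, a 1.36-fold difference at a base mean of 188 and an adjusted p of 0.0166. It lay at -0.05 ± 0.11 in macrophages and -0.62 ± 0.29 in NPCs per the authors' deposited table, neither past the test, with adjusted p of 0.811 and 0.171. X6A_LINE lay at -0.64 ± 0.22 in NPCs per the authors' deposited table, with a base mean of 165 and an adjusted p of 0.0340, while its values of 0.21 ± 0.17 in ESCs and 0.04 ± 0.10 in macrophages did not pass.

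L3 and L3b were the CR1 rows with the most reads. L3, with base means from 2339 to 3479, lay at 0.07 ± 0.08 in ESCs, -0.06 ± 0.05 in macrophages and -0.08 ± 0.15 in NPCs per the authors' deposited table and passed in none. L3b was negative in macrophages, at -0.26 ± 0.08 with an adjusted p of 0.0127 and a base mean of 651 per the authors' deposited table. It lay at 0.0019 ± 0.10 in ESCs and -0.26 ± 0.25 in NPCs per the authors' deposited table, the latter equal in size to the macrophage value but with an SE about as large as the value itself. Plat_L3 was positive in macrophages, at 0.58 ± 0.22 with a base mean of 40.0 and an adjusted p of 0.0344 per the authors' deposited table, and its values of 0.39 ± 0.22 in ESCs and -0.25 ± 0.22 in NPCs did not pass. No difference of L3b or Plat_L3 between cell types passed the test.

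L2 elements, whose enzymes are also thought to have moved the short MIR elements, held most reads of these LINEs. The class took up 84.3%, 82.7% and 80.4% of the LINEs' summed base mean in ESCs, macrophages and NPCs. In ESCs none of 11 tested L2 rows passed DESeq2's adjusted p, and 1 had an unadjusted p under 0.05. Over all tested rows in ESCs, 10.2% were positive and 12% negative, and 353 of 1132 had an unadjusted p under 0.05. In macrophages 1 of 13 was positive and 3 negative, and in NPCs 0 of 12 were positive and 3 negative. Over all tested rows 13.3% were positive and 12.5% negative in macrophages, and 4.96% and 6.81% in NPCs, and whether the class differs from these shares was not tested. All 12 tested L2 rows had values below 0 in NPCs, while 5 of 11 lay above 0 in ESCs and 5 of 13 in macrophages. Over all tested rows 623 of 1249 lay below 0 in NPCs, while 571 of 1132 lay above 0 in ESCs and 610 of 1255 in macrophages.

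The abundant L2 rows had smaller SEs than the tested LINEs with a base mean under 50, though larger ones in NPCs than in the other cell types. L2a, with base means of 10213, 8683 and 9876 in ESCs, macrophages and NPCs, lay at 0.12 ± 0.06, 0.09 ± 0.04 and -0.04 ± 0.10 per the authors' deposited table. Its adjusted p was 0.169, 0.0666 and 0.908 per the authors' deposited table, and its 95% intervals ran from -0.0015 to 0.25, from 0.01 to 0.16 and from -0.24 to 0.16. L2b lay at 0.08 ± 0.07, 0.02 ± 0.04 and -0.08 ± 0.16, and L2c at -0.09 ± 0.07, -0.03 ± 0.05 and -0.13 ± 0.13, in the same order of cell types per the authors' deposited table. In NPCs the 95% intervals ran from -0.39 to 0.23 for L2b and from -0.39 to 0.13 for L2c. No value of L2a, L2b or L2c passed at the reported setting. L2a in macrophages passed, however, under some of the alternatives given at the end. L2d2 lay between -0.07 and -0.18 in the 3 cell types and did not pass either.

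At the reported setting, the row named L2 was the exception among the abundant rows in macrophages. It lay at 0.30 ± 0.06 there per the authors' deposited table, a 1.23-fold difference with a 95% interval from 0.19 to 0.41, a base mean of 7171 and an adjusted p of 1.46e-06. In ESCs it lay at 0.11 ± 0.06 and in NPCs at -0.17 ± 0.12 per the authors' deposited table, neither past the test. L2d was called in NPCs, at -0.47 ± 0.15 with a base mean of 1901 and an adjusted p of 0.0229 per the authors' deposited table. Its values of 0.14 ± 0.09 in ESCs and 0.04 ± 0.08 in macrophages did not pass. Related L2 rows may share reads, since no source used here says how reads with several matches were assigned.

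The 3 L2-class rows called with the greatest fold changes, X15_LINE, UCON49 and L2-2_Mam, held fewer reads, and all were negative. X15_LINE lay at -1.19 ± 0.11 in macrophages per the authors' deposited table, with an interval from -1.41 to -0.97, a base mean of 779 and an adjusted p of 7.4e-25, the smallest of any LINE outside L1. It lay at -0.86 ± 0.29 in NPCs (base mean 191, adjusted p 0.0321) and at -0.47 ± 0.20 in ESCs (base mean 79.5, adjusted p 0.0650) per the authors' deposited table, so that ESCs missed the threshold. L2-2_Mam lay at -0.55 ± 0.17 in macrophages (base mean 91.9, adjusted p 0.00783) and at -0.84 ± 0.25 in NPCs (base mean 73.7, adjusted p 0.00798) per the authors' deposited table. In ESCs it lay at -0.23 ± 0.22 per the authors' deposited table and did not pass.

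UCON49 was called in macrophages, at -1.16 ± 0.33 with an adjusted p of 0.00250 per the authors' deposited table, on a base mean of only 13.2. With base means of 9.65 in ESCs and 2.70 in NPCs, its values there of -0.07 ± 0.34 and -0.53 ± 0.41 per the authors' deposited table did not pass. No difference of UCON49 between cell types passed the test.

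**Figure D2:**
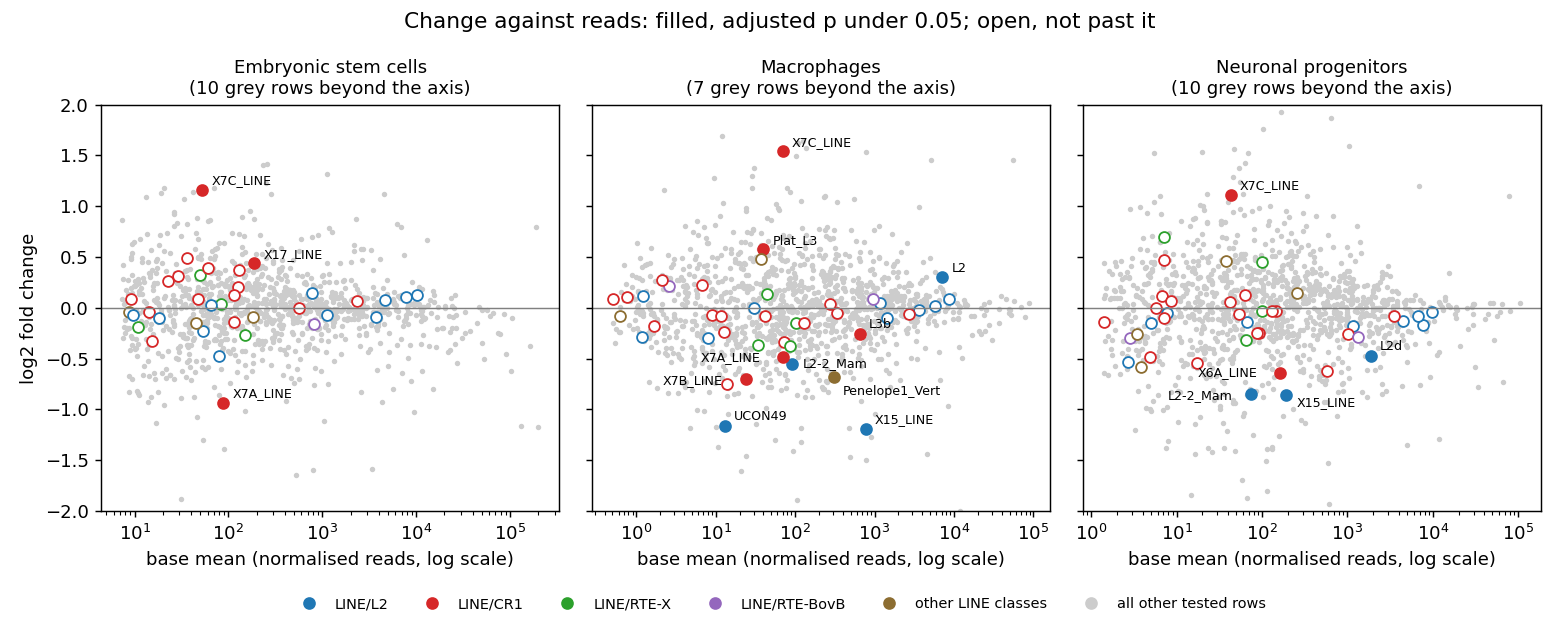
Log2 fold change against base mean (log scale) for the tested LINE subfamilies outside L1 (coloured by class) and all other tested rows (grey), in ESCs, macrophages and NPCs. The vertical axis ends at 2 on each side, beyond which 10, 7 and 10 grey rows lie. Filled, named points were called, and of the L2 rows at the right, with a base mean of at least 1000, L2 at 0.30 in macrophages and L2d at -0.47 in NPCs were called.

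The RTE classes, RTE-X and RTE-BovB, are further old LINE families, BovB being best known from ruminants and snakes. In each cell type 4 RTE-X rows were tested, with 1, 2 and 2 RTE-BovB rows in ESCs, macrophages and NPCs. No RTE row was called in any cell type. Over all tested rows 22.2%, 25.8% and 11.8% were called, and so few RTE rows cannot show whether their share differs. Of the 4 RTE-X rows, 0, 1 and 0 had an unadjusted p under 0.05 in ESCs, macrophages and NPCs with DESeq2's test, and of the RTE-BovB rows none did. Over all tested rows 353 of 1132, 436 of 1255 and 257 of 1249 did. MamRTE1, the abundant RTE-BovB row, lay at -0.16 ± 0.09, 0.08 ± 0.06 and -0.29 ± 0.20 in ESCs, macrophages and NPCs per the authors' deposited table, at base means of 821, 956 and 1345. The RTE-X row with the most reads was L4_A_Mam in ESCs, at -0.26 ± 0.15 and a base mean of 149 per the authors' deposited table. In the other cell types it was L4_C_Mam, at -0.15 ± 0.16 in macrophages and 0.45 ± 0.23 in NPCs per the authors' deposited table, with base means of 103 and 101. MamRTE2 held a base mean of at most 2.85 in any table.

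Penelope elements differ from other LINEs in the endonuclease they carry and form a separate old lineage. Penelope1_Vert, the only row of its class, was negative in macrophages, at -0.68 ± 0.09 per the authors' deposited table, a 1.60-fold difference with a 95% interval from -0.85 to -0.50, a base mean of 307 and an adjusted p of 7.19e-13. It lay at -0.09 ± 0.14 in ESCs (base mean 182) and 0.14 ± 0.28 in NPCs (base mean 256) per the authors' deposited table, and neither value passed. X12_LINE, the only Jockey row, lay at -0.15 ± 0.24, 0.48 ± 0.21 and 0.46 ± 0.34 in ESCs, macrophages and NPCs per the authors' deposited table, on base means from 37.0 to 44.7, and did not pass. Mam_R4 of the Dong-R4 class and MARE6 of the L1-Tx1 class had base means of at most 8.65 and were not called. MARE6 was tested in NPCs alone.

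The median change needed to be called was larger in rows with fewer reads, and larger in NPCs than in the other cell types. Among tested LINEs outside L1 with a base mean of at least 1000, the median change needed to pass was 1.14-fold in ESCs, 1.09-fold in macrophages and 1.33-fold in NPCs. With a base mean under 50 it was 1.72-fold, 1.71-fold and 2.25-fold. Of these sparse rows, 0 of 13 were called in ESCs, 3 of 22 in macrophages and 1 of 18 in NPCs, against 27 of 272, 45 of 486 and 27 of 464 over all tested rows under 50. These are medians over rows and not limits, and 3 of the 4 sparse calls were smaller than them: Plat_L3 at 1.49-fold and X7B_LINE at 1.62-fold in macrophages and X7C_LINE at 2.17-fold in NPCs. The fold changes of sparse rows may also be shrunken towards 0. Where the base mean reached 50, 3 of 23 were called in ESCs, 7 of 20 in macrophages and 4 of 24 in NPCs, against 224 of 860, 279 of 769 and 120 of 785 of all tested rows of that size.

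Differences between cell types were tested per subfamily, by subtracting 1 log2 fold change from the other and dividing by the joint SE, with a two-sided normal p adjusted by Benjamini-Hochberg over all repeat rows tested in both tables. Between ESCs and macrophages 5 of 36 LINEs outside L1 differed (13.9%), against 23.7% of all 1124 rows. Between ESCs and NPCs 4 of 35 differed (11.4%), against 12.6% of all 1126 rows, and between macrophages and NPCs 4 of 39 (10.3%), against 12.4% of all 1222 rows. These 13 differences came from 9 subfamilies.

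Higher and lower here refer to the log2 fold change between the groups, not to the level of RNA. X17_LINE was higher in ESCs than in NPCs by 1.06 ± 0.32 (adjusted p 0.0116 from the DESeq2 estimates) and than in macrophages by 0.49 ± 0.18 (adjusted p 0.0362). X6A_LINE was lower in NPCs than in ESCs, with a difference of 0.85 ± 0.28 (adjusted p 0.0211), and than in macrophages, with 0.68 ± 0.24 (adjusted p 0.0426). X7A_LINE lay further on the negative side in ESCs than in NPCs, with a difference of -0.90 ± 0.28 (adjusted p 0.0121). The difference of X7A_LINE between ESCs and macrophages, -0.45 with an interval from -0.96 to 0.07, did not pass.

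In the L2 class, X15_LINE lay further on the negative side in macrophages than in ESCs, with a difference of 0.71 ± 0.23 (ESCs minus macrophages, adjusted p 0.00968). L2 was higher in macrophages than in NPCs by 0.47 ± 0.13 (adjusted p 0.00456). Its differences of -0.19 for ESCs minus macrophages (adjusted p 0.0817) and 0.28 for ESCs minus NPCs (adjusted p 0.167) did not pass. L2d was lower in NPCs than in ESCs, with a difference of 0.61 ± 0.18 (adjusted p 0.00703), and than in macrophages, with 0.51 ± 0.17 (adjusted p 0.0303). L2-2_Mam, called in macrophages and NPCs and not in ESCs, was not shown to differ between them: ESCs minus macrophages gave 0.32 (interval -0.24 to 0.87) and ESCs minus NPCs 0.61 (interval -0.04 to 1.26). Penelope1_Vert was lower in macrophages than in ESCs, with a difference of 0.58 ± 0.17 (adjusted p 0.00389), and than in NPCs, at -0.82 ± 0.29 (adjusted p 0.0426).

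CR1_Mam and CR1-3_Croc, singled out after their values were seen, also differed between ESCs and macrophages although neither was called in either cell type. CR1_Mam lay at 0.37 ± 0.17 in ESCs and -0.33 ± 0.15 in macrophages per the authors' deposited table, a difference of 0.71 ± 0.23 with an adjusted p of 0.0110. CR1-3_Croc lay at 0.49 ± 0.26 and -0.75 ± 0.31 per the authors' deposited table, a difference of 1.24 ± 0.40 with an adjusted p of 0.0119, on base means of 36.3 and 14.0.

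**Figure D3:**
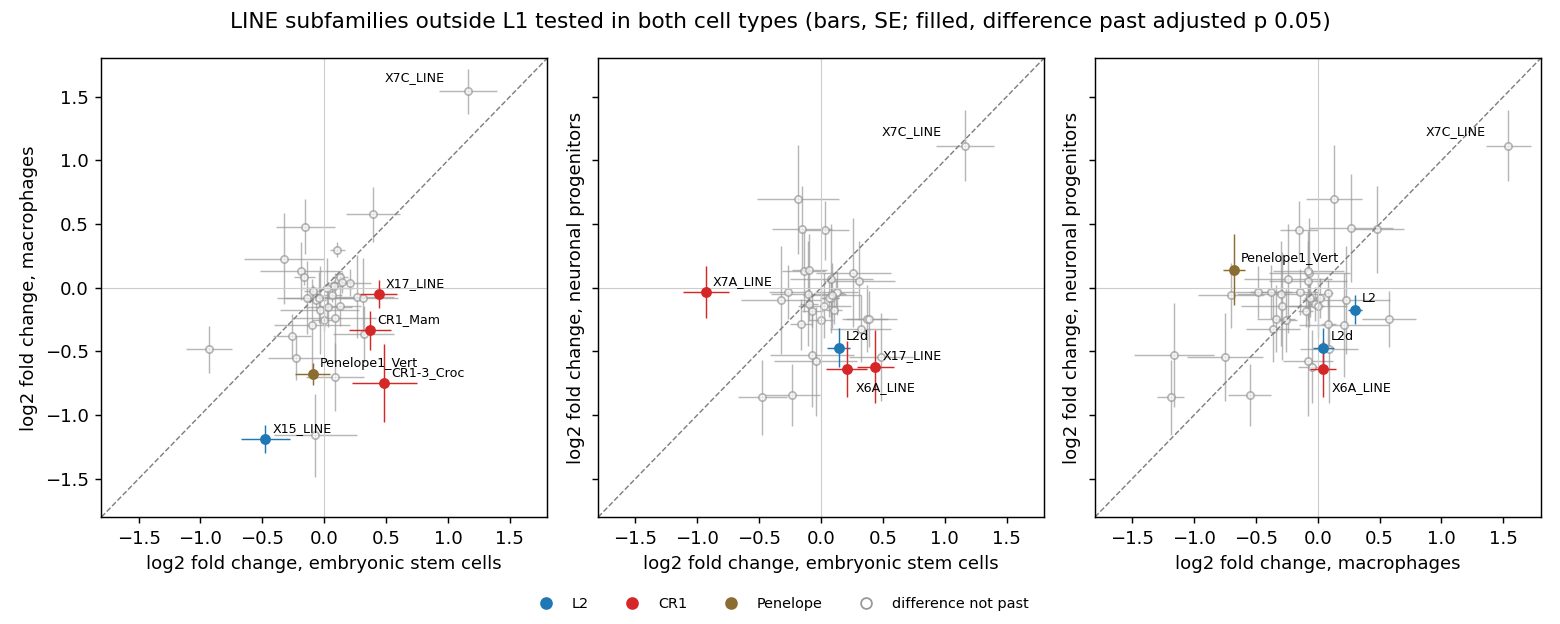
Log2 fold changes of LINE subfamilies outside L1 in each pair of cell types, with SE bars and the line of equal values (dashed). Filled points differ between the cell types at an adjusted p of 0.05: 5 of 36 for ESCs and macrophages, 4 of 35 for ESCs and NPCs and 4 of 39 for macrophages and NPCs. X7C_LINE lies at the upper right in each panel.

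If 1 table of a pair had its sign turned, 10 of 36 would differ between ESCs and macrophages (27.9% of all rows), 4 of 35 between ESCs and NPCs (16.2% of all rows) and 5 of 39 between macrophages and NPCs (19.9% of all rows). Of the 13 differences above, 3 would still pass: Penelope1_Vert and X15_LINE between ESCs and macrophages (adjusted p 4.13e-05 and 4.04e-12) and X7A_LINE between ESCs and NPCs (adjusted p 0.00473). Their direction would not always hold. With the sign of the second cell type turned, Penelope1_Vert would go from 0.58 to -0.77 and X15_LINE from 0.71 to -1.66. X7A_LINE would keep its sign, at -0.90 and -0.96. The other 10 would not. X7C_LINE would then differ by 2.70, 2.28 and 2.66 on the log2 scale, so that either its side is shared by all 3 cell types or the tables are not oriented alike.

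Across the members with a base mean of at least 50 in both tables, the log2 fold changes in ESCs and macrophages had a Pearson r of 0.78 and a Spearman rho of 0.60 (n = 20 subfamilies), and 0.56 and 0.53 without X7C_LINE (n = 19). For ESCs and NPCs they were -0.04 and -0.18 (n = 22), and for macrophages and NPCs 0.26 and -0.11 (n = 19). X7C_LINE is not among the latter, since its base mean in NPCs was under 50. The points of a table share its libraries and size factors and may share reads, and the SEs in NPCs were larger, with a median of 0.28 over the tested members against 0.19 in ESCs and 0.19 in macrophages.

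Beside these LINEs, the L1 class had 8 positive and 16 negative of 146 tested rows in ESCs, 36 and 10 of 148 in macrophages and 1 and 7 of 148 in NPCs. Its medians were 0.02, 0.05 and -0.02. In macrophages the L1 calls were thus mostly positive, while those of the LINEs outside L1 were 3 positive and 7 negative, a difference that was not tested. The 5 MIR rows, short elements that share the tail sequence of L2, gave 0 calls in ESCs, 1 negative call in macrophages and 0 in NPCs with DESeq2's adjusted p. At an unadjusted p under 0.05 the MIR counts were 0, 2 and 0, and the MIR medians were 0.01, -0.03 and -0.13. Over all tested rows 10.2% were positive and 12% negative in ESCs, 13.3% and 12.5% in macrophages and 4.96% and 6.81% in NPCs. At an unadjusted p under 0.05 these rows numbered 353 of 1132, 436 of 1255 and 257 of 1249. Whether L1 or MIR differs from all rows was not tested.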

How the data were processed

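RNA from untreated and NVP-AUY922-treated cells was sequenced as stranded, paired-end poly(A) libraries, per the labels' protocols. The submitters' processing notes name, without roles, the build mm10, DESeq2, featureCounts, Bowtie2, TopHat2 2.0.13, deepTools and Trim Galore. The handling of reads with several placements, and of strand in counting, are not given in the sources used here. Per the file headers, the authors deposited DESeq2 results: the base mean (a signal, mean reads over size factors), the log2 fold change and its SE, the Wald score, and the p-value with its adjusted p-value. The score equalled fold change over SE, and the adjusted p a Benjamini-Hochberg adjustment, in all 1132, 1255 and 1249 tested rows of the ESC, macrophage and NPC tables (relative tolerance 1e-06). Rows with a base mean under 1 reached at most 0.25, 0.42 and 0.37 in absolute log2 fold change, so sparse rows may be shrunken towards 0, a step no source used here records. Depth per library is unknown.

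Computed here, with Python 3.11.15, pandas 2.3.3 and scipy 1.17.1, were counts, medians, normal intervals and the differences between cell types, whose code was tested on simulated data. Each table was normalised by itself, so base means were not compared across tables. Values were given for each subfamily called in at least 1 table, for the row of largest base mean of each class, and for X7C_LINE and L2-2_Mam. The members, lists and tests were chosen with earlier results of these data known. Alternatives covered the threshold, the rows adjusted over, a base mean of at least 50, centring, a minimum change and the orientation. No consensus sequences of these repeats were used here.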

Additional observations from a re-analysis of the deposited data

Results flagged for a closer look

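The subfamilies below had comparisons of treated with untreated cells that differed between cell types, by the test of the difference of log2 fold changes (Benjamini-Hochberg over all rows tested in both tables). As ESCs minus macrophages, the difference was 0.71 for CR1_Mam, 1.24 for CR1-3_Croc, 0.58 for Penelope1_Vert, 0.71 for X15_LINE and 0.49 for X17_LINE. As ESCs minus NPCs, it was 0.61 for L2d, 1.06 for X17_LINE, 0.85 for X6A_LINE and -0.90 for X7A_LINE. As macrophages minus NPCs, it was 0.47 for L2, 0.51 for L2d, -0.82 for Penelope1_Vert and 0.68 for X6A_LINE. Dose and, against macrophages, strain differ along with the cell type and cannot be told apart from it.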

How the results depend on the processing

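Of 45 alternative values for the counts, medians and differences between cell types, 38 stayed within 1.5 times the count reported or, for medians, within 1 median SE. That SE is the one of a typical single subfamily, 0.19, 0.19 and 0.28 in ESCs, macrophages and NPCs. It exceeds the size of the medians reported, so a median of 0 would also lie within it. All alternatives for medians met this wide limit, and their part of the 38 therefore says little. With an adjusted p under 0.1 in place of 0.05, 5 rather than 3 LINEs outside L1 were called in ESCs. With an adjusted p under 0.01, 6 rather than 10 were called in macrophages, 2 rather than 5 in NPCs, and 2, 1 and 1 rather than 5, 4 and 4 differed between ESCs and macrophages, ESCs and NPCs, and macrophages and NPCs, as a stricter threshold must give fewer or equal calls. With the sign of the macrophage table turned, 10 rather than 5 differed from ESCs, beside 27.9% rather than 23.7% of all rows. For the other settings in this section the share over all rows was not computed. Their counts therefore cannot show whether these LINEs moved with all rows. No called subfamily changed side under centring, under adjustment over every row with a p, or with only base means from 50 up, and none of the calls was lost there, apart from 4 in rows with fewer reads, which the last of these leaves out: Plat_L3, UCON49 and X7B_LINE in macrophages and X7C_LINE in NPCs. In macrophages a positive call was gained, that of L2a. With centring 11 rather than 10 were called there, 4 rather than 3 of them positive. With only base means from 50 up 8 were called, 3 of them positive, against 7 and 2 among the same rows at the reported setting. At an adjusted p under 0.01 in place of 0.05, 8 of the 18 calls were lost: X17_LINE in ESCs, L3b, Plat_L3, X7A_LINE and X7B_LINE in macrophages, and L2d, X15_LINE and X6A_LINE in NPCs. The median in ESCs was -0.01 in place of 0.03 with untested rows included, both within 1 median SE of 0. No paired analysis was possible because each file gives a finished comparison without its single libraries, and for the same reason no library could be left out in turn. The median change needed to be called was largest in the rows with a base mean under 50.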
